A study of Mus musculus with 24 samples.

Results

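DNA methylation was examined at the gene ends of 10 mouse genes of the meiotic chromosome: Sycp1, Sycp2, Sycp3, Syce1, Smc1b, Hormad1, Stag3, Dmc1, Spo11 and Stra8. They were chosen by name, as genes that build, join or break meiotic chromosomes or start meiosis. For each gene the measured stretch reached 1 kb to each side of whichever end of the gene holds more CpGs in build mm10, and is called its gene end here. All 10 had such a window, out of 21627 genes with one, and all 10 were among the 20316 gene ends with enough calls to be tested. A level is the percentage of calls at the CpGs of a window that read as methylated.

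DNA was sequenced genome-wide after oxidative bisulfite treatment, so that 5-hydroxymethylcytosine does not read as 5-methylcytosine. The cells were mouse induced pluripotent stem (iPS) cells in which doxycycline induces a knocked-in microRNA, miR-203 (lines N5 and N9), and wild-type iPS cells. Each was sampled at t=0, at day 10 (5 days after a doxycycline pulse of 5 days), at day 25 (20 days after the pulse) and as embryoid bodies at day 32, aggregates in which pluripotent cells differentiate. The series design gives the embryoid bodies 7 days of differentiation, and the label of the wild-type ones gives 10. At day 10 and day 25 the labels place the wild-type cells after doxycycline too. There the drug was shared and the inducible knock-in was not. The label of the knock-in embryoid bodies names doxycycline and that of the wild-type ones does not. The iPS cells grew on feeder cells, and the sources used here do not say whether these were removed before DNA extraction. There were 12 libraries, 1 per line and stage, so knock-in values are means with the SD of 2 lines (n = 2) and each wild-type stage is 1 library. In the tests the single wild-type library is assumed to vary as the knock-in lines do.

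Depth was low per CpG and higher per window. Mean coverage was between 4.70 and 8.74 calls per CpG, while the windows of the 10 genes held 153 to 875 calls in a library. The widest 95% Wilson interval of a window level was 7.51 points either side, and these intervals cover counting error only. They treat every call as independent and may be too narrow. The pair of columns of each wild-type library differed by more than that allows, with a chi-square per degree of freedom of 2.40 to 2.46. By the sample titles, 3 libraries of N5 (t=0, day 25 and embryoid bodies) ran on a flow cell of their own and the other 9 on another, so values of N9 and the wild type share a flow cell throughout. Over all calls the level of N5 and N9 was lowest at day 25 (48.4 and 47.7%, against 61.1% in the wild type), so changes at the 10 genes are read beside those of all gene ends.

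In meiotic prophase the homologous chromosomes are organised along protein axes and joined by the synaptonemal complex. Cohesins hold the sister chromatids together, while programmed DNA breaks are made and repaired by recombination. The genes for this machinery are largely restricted to germ cells. In somatic cells many of them are silent with methylated CpG-rich promoters, and in mouse pluripotent cells a repressor complex that contains MGA, MAX and E2F6 binds such promoters. MGA and MAX recognise the E-box and E2F6 the E2F motif.

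Promoter sequences, from 250 bases before to 50 bases after the annotated start, were taken from RefSeq on build GRCm38.p6, whose chromosomes carry the mm10 coordinates; 9 of the 10 genes matched an entry, all but Spo11. They were searched on both strands for the E-box CACGTG and the E2F motif GCGGGAA. The E-box lay in 4 of the 9 promoters, against 8.09% of 27025 genes with an entry, and the E2F motif also in 4, against 5.29%. Sycp3, Hormad1 and Stag3 held both, as did 0.514% of all genes. The 5 promoters with a match are shown because the methylation of their cores differs widely, as given further on. Capitals mark the motif matches, which overlap nowhere, and each line runs 5′ to 3′ on the strand of the gene.
Sycp1: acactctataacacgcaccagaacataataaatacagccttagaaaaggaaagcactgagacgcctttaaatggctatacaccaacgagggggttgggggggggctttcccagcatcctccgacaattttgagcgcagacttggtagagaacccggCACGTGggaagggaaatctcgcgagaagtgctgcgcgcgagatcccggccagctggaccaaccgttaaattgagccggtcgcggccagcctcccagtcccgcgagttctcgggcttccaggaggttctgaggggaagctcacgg
Sycp3: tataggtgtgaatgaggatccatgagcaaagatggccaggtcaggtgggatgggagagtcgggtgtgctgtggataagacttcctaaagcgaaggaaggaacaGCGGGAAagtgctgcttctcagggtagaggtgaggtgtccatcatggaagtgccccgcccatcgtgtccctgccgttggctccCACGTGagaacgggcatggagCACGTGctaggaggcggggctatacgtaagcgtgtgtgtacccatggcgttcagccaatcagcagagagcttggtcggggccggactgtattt
Hormad1: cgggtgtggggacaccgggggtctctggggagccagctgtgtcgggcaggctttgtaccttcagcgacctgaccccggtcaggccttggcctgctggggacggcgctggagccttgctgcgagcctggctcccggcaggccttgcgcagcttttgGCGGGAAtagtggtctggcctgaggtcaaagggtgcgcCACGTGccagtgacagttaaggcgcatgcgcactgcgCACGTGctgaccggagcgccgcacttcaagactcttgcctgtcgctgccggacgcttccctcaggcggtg
Smc1b: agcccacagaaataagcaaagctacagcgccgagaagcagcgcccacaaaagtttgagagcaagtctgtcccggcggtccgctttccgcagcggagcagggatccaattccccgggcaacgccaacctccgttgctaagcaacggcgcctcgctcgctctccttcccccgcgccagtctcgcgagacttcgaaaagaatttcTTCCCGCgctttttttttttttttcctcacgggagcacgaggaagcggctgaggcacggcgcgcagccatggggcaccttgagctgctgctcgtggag
Stag3: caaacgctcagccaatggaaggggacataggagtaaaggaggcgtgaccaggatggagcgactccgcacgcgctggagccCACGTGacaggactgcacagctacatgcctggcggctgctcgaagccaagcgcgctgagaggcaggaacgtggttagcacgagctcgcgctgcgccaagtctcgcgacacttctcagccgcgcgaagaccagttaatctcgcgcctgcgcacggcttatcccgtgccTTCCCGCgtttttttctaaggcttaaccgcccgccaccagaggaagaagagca
The Sycp1 stretch is chr3:102936051-102936350 on the minus strand, with the E-box at -94 from the start. The Sycp3 stretch is chr10:88459337-88459636 on the plus strand, with E-boxes at -64 and -43 and the E2F motif at -147. The Hormad1 stretch is chr3:95559427-95559726 on the plus strand, with E-boxes at -57 and -20 and the E2F motif at -95. The Smc1b stretch is chr15:85131908-85132207 on the minus strand and holds the E2F motif, read from the other strand, at -48. The Stag3 stretch is chr5:138280259-138280558 on the plus strand, with the E-box at -170 and the E2F motif, read from the other strand, at -3. A match describes these letters and is no evidence of binding.

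Before doxycycline the 10 gene ends were unevenly methylated, with the synaptonemal complex genes and Stra8 highest and the genes of DNA breakage, strand exchange and the SMC1 cohesin lowest. The knock-in means at t=0 ran in the order Sycp2 (51.7% ± 0.199), Sycp3 (47.9% ± 6.51), Stra8 (47.4% ± 10.4), Sycp1 (40.9% ± 10.3) and Syce1 (32.8% ± 5.41), where each neighbour's lines overlapped (SD, n = 2). Hormad1 (25.9% ± 0.747) and Stag3 (21.8% ± 7.12) came next and overlapped each other. Spo11 (11.7% ± 2.81), Dmc1 (11.1% ± 0.231) and Smc1b (10.0% ± 2.33) were lowest and could not be told apart by their lines. Among all gene ends tested these levels lay between the percentiles 49.8 (Smc1b) and 70.4 (Sycp2). The 7 genes whose own windows hold at least 50 CpGs lay between 79.4 (Smc1b) and 98.8 (Sycp2) among the 12182 such ends, and Stag3, Spo11 and Stra8 have fewer CpGs. The median of the 10 was 27.9% in N5, 31.5% in N9 and 22.9% in the wild type at t=0, against 10.1, 10.1 and 9.22% over all gene ends tested.

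**Figure D1:**
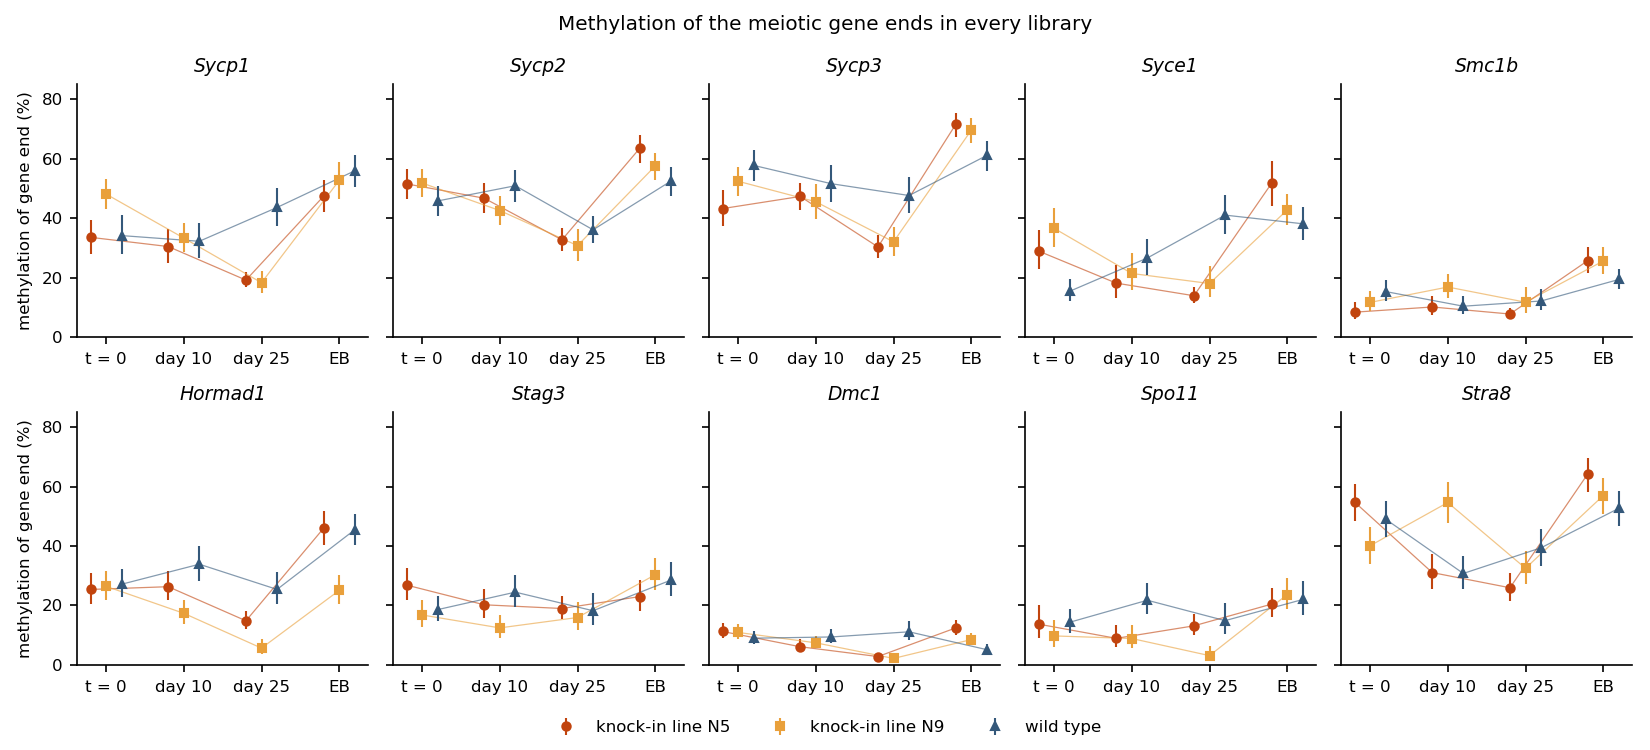
Methylation of each gene end in percent (vertical axis) at the 4 stages (horizontal axis), with points for N5, N9 and the wild type and bars for 95% Wilson intervals. Both knock-in lines are lowest at day 25 and high in embryoid bodies at Sycp1, Sycp2 and Sycp3, while Smc1b stays between 7.79 and 25.7%.

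The main change in the knock-in lines came between t=0 and day 25. Of the 10 gene ends 7 fell: those of the synaptonemal complex genes Sycp1, Sycp2, Sycp3 and Syce1, the axis gene Hormad1, the recombinase gene Dmc1 and Stra8, each with an adjusted p under 0.05 in edgeR's quasi-likelihood test (Benjamini-Hochberg over all gene ends). Falls were common at this stage, since 40.2% of all gene ends tested fell. In points the median change of the 10 was -16.2, against -3.90 over all gene ends. Points follow the starting level, and the median of the lines at t=0 was 29.4% for the 10 and 10.1% for all gene ends. By log2 odds, which depend less on the starting level, the median changes were closer, -1.17 against -0.98. Smc1b, Stag3 and Spo11 did not pass. The 7 genes and the 3 others are described next by their roles.

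Sycp1 encodes the transverse filament protein that spans the synaptonemal complex. Its gene end (chr3:102935100-102937100, 101 CpGs) read 33.6, 30.5, 19.2 and 47.5% in N5 and 48.1, 33.3, 18.3 and 52.8% in N9, with the stages in the order t=0, day 10, day 25, embryoid bodies. The wild type read 34.2, 32.3, 43.6 and 56.0%. Both lines were lowest at day 25, below every wild-type library, and the lines fell by 22.1 points (adjusted p = 0.00166), made up of -14.4 (N5) and -29.8 (N9), where the wild type changed by 9.47. Sycp2 and Sycp3 encode the proteins of the lateral elements, along which each homologue is arranged. Sycp2 (chr2:178406776-178408776, 77 CpGs) read 51.6, 46.7, 32.7 and 63.5% in N5 and 51.9, 42.6, 30.8 and 57.6% in N9, in the same order of stages. In the wild type it read 45.8, 50.9, 36.1 and 52.5%. The lines lay close together at every stage, and by day 25 they fell by 19.9 points (adjusted p = 0.00727), with -9.70 in the wild type. Sycp3 (chr10:88458587-88460587, 65 CpGs) read 43.3, 47.3, 30.4 and 71.6% in N5 and 52.5, 45.6, 32.1 and 69.6% in N9. Its wild-type values were 57.8, 51.6, 47.7 and 61.1%. At Sycp3 the lines fell by 16.6 points (adjusted p = 0.0170) and the wild type changed by -10.1, so for both lateral element genes the wild type moved the same way by a smaller amount.

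Syce1 encodes a protein of the central element, where the filaments from both homologues meet. Its gene end (chr7:140786854-140788854, 50 CpGs) read 29.0, 18.2, 13.9 and 51.8% in N5 and 36.6, 21.4, 18.0 and 42.8% in N9. The wild type read 15.4, 26.6, 41.1 and 38.1%, with Wilson intervals of 12.1 to 19.5% at t=0 and 34.6 to 47.9% at day 25. Lines and wild type thus moved in opposite directions: the lines fell by 16.8 points (adjusted p = 0.00404), -15.0 in N5 and -18.6 in N9, where the wild type changed by 25.6. Of the 10 gene ends Syce1 had the widest gap between lines and wild type at t=0, 17.4 points, which did not pass (adjusted p = 0.181). Hormad1 encodes a HORMA domain protein of the unsynapsed axis. Its gene end (chr3:95558677-95560677, 58 CpGs) read 25.4, 26.3, 14.8 and 46.0% in N5 and 26.4, 17.4, 5.65 and 25.1% in N9, against 27.1, 33.9, 25.4 and 45.5% in the wild type. Day 25 was the low point of both lines, lower in N9, and the lines fell by 15.7 points (adjusted p = 0.00696), with -1.74 in the wild type. Hormad1 was also the gene whose lines parted most in embryoid bodies, at 46.0% in N5 and 25.1% in N9.

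Smc1b and Stag3 encode meiosis-specific subunits of cohesin, the ring that holds sister chromatids together. Smc1b (chr15:85130957-85132957, 78 CpGs) read 8.40, 10.2, 7.79 and 25.7% in N5 and 11.7, 16.9, 11.8 and 25.6% in N9, and 15.3, 10.4, 12.2 and 19.4% in the wild type. Its day 25 change was -0.273 points (adjusted p = 0.802), the smallest of the 10. The window of Stag3 (chr5:138271514-138273514, 27 CpGs) lies 7995 bases from the annotated promoter start, so 2 windows are given for this gene. In the first it read 26.9, 20.2, 19.0 and 23.0% in N5 and 16.8, 12.5, 15.9 and 30.3% in N9, and 18.6, 24.5, 18.2 and 28.5% in the wild type. Its change of -4.37 points at day 25 did not pass (adjusted p = 0.394). In the window of the same width around the promoter start (100 CpGs), added after the values were seen, Stag3 read 12.3, 12.8, 5.20 and 20.6% in N5 and 12.6, 13.2, 7.02 and 15.6% in N9. The wild type read 17.9, 12.2, 16.0 and 17.6% there. In that window both lines were lowest at day 25 and Stag3 fell by 6.36 points (adjusted p = 0.0224).

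Spo11 encodes the enzyme that makes the meiotic DNA breaks. Its gene end (chr2:172976379-172978379, 29 CpGs) read 13.7, 8.94, 13.2 and 20.5% in N5 and 9.76, 8.88, 3.12 and 23.7% in N9, and 14.3, 21.8, 14.9 and 22.0% in the wild type. N9 had a low value at day 25 and N5 did not, and the change of -3.60 points did not pass (adjusted p = 0.351). The choice of end was close for Spo11, whose other end holds 28 CpGs. That end read 74.3% ± 1.71 at t=0 and 55.1% ± 3.50 at day 25 in the lines. Its change of -19.3 points passed edgeR's quasi-likelihood test at the other gene end (adjusted p = 0.00170). Dmc1 encodes the meiotic recombinase that carries out strand exchange between homologues. Its gene end (chr15:79604159-79606159, 80 CpGs) read 11.3, 6.11, 2.81 and 12.4% in N5 and 10.9, 7.43, 2.18 and 8.52% in N9, against 8.99, 9.40, 11.1 and 5.14% in the wild type. The lines fell by 8.60 points (adjusted p = 6.31e-04), in proportion the deepest change of the 10, since day 25 kept 0.225 of the t=0 level. Both lines agreed within 1 point at day 25 and lay below all 4 wild-type libraries. Stra8 is induced by retinoic acid and is needed for entry into meiotic prophase. Its gene end (chr6:34919163-34921163, 35 CpGs) read 54.8, 31.1, 26.0 and 64.2% in N5 and 40.1, 54.6, 32.5 and 57.0% in N9, and 49.0, 30.8, 39.4 and 52.7% in the wild type. The lines crossed over between t=0 and day 10. The lines fell by 18.2 points (adjusted p = 0.0223), with -28.9 in N5 and -7.58 in N9, beside -9.64 in the wild type.

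**Figure D2:**
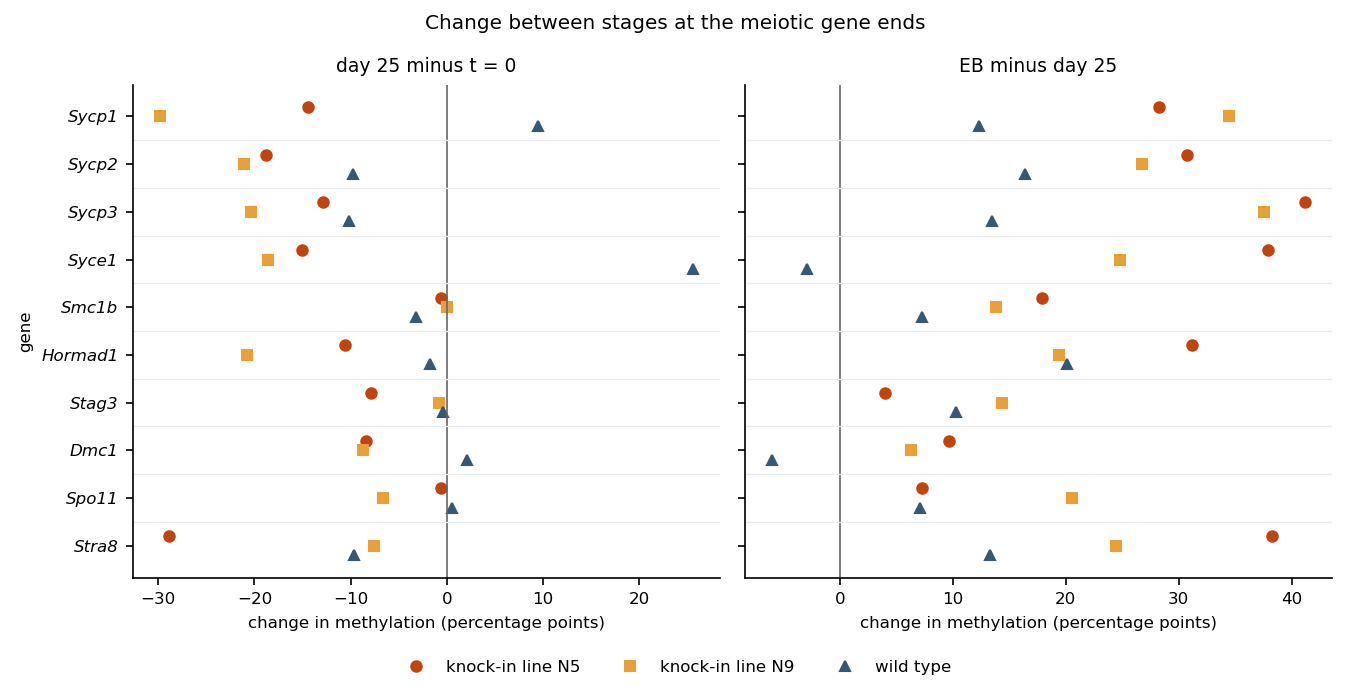
Change of each gene end in percentage points (horizontal axis) for N5, N9 and the wild type, from day 25 minus t=0 on the left and embryoid bodies minus day 25 on the right; the vertical line marks no change. On the left the wild-type points of Syce1 (25.6) and Sycp1 (9.47) lie on the other side of 0 from both lines, and on the right both lines lie above 0 at all 10 genes.

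The day 25 count depended on the libraries. A fit without the 3 libraries of the other flow cell was added after the values were seen. It leaves N9 alone in each knock-in group but day 10, so its spread comes from day 10 alone. Whether calls gained or lost in it below reflect the flow cell or lost replication cannot be told. Leaving out 1 library of a line likewise leaves 1 in that group. With all libraries, limma on logit values passed Sycp1, Sycp2, Syce1 and Dmc1. With 1 library left out, Stra8 did not pass without N5 at t=0 (adjusted p = 0.237) or at day 25 (0.155), Hormad1 not without N9 at day 25 (0.111), and Syce1 not without N9 at t=0 (0.0611) or N5 at day 25 (0.0669). Sycp3 did not pass without N9 at t=0 (0.170), N5 at day 25 (0.0937) or N9 at day 25 (0.0562). In N9, which shares its flow cell with the wild type at every stage, the changes at the 7 genes that fell ran from -7.58 (Stra8) to -29.8 points (Sycp1). N9 entered the calls that picked these genes, which favours a fall in N9, and the part of the flow cell was not tested. Coverage of the first 4.5 Mb of chromosome Y moved with the same stages. As a ratio to the coverage of chromosome 5 the 4 stages of N5 gave 0.0367, 0.00112, 0.0122 and 8.43e-04, and those of N9 0.0378, 9.57e-04, 0.00997 and 2.56e-04. In the wild type it was 0.00162, 0.00173, 0.00136 and 6.22e-04. The lines were highest at t=0, and the part of this in the change from t=0 was not tested. From day 10 to day 25 the chromosome Y ratio of the lines rose, and its part in this step was not tested either. The changes at the same 7 genes over this step were -13.2 (Sycp1), -12.9 (Sycp2), -15.2 (Sycp3), -3.81 (Syce1), -11.6 (Hormad1), -4.28 (Dmc1) and -13.6 points (Stra8). They had the same sign in N5 and N9, and no test was made. These genes were picked by their low day 25 libraries, which favours a fall over this step too. The wild type changed over this step by -14.8 at Sycp2, more than the lines, by -8.48 at Hormad1 and by -3.97 at Sycp3, and by 11.4, 14.4, 1.73 and 8.64 points at Sycp1, Syce1, Dmc1 and Stra8.

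Markers of the cell types that the cultures could hold were read at their gene ends in the same way, which measures methylation and not expression. Of 4 pluripotency genes 3 fell in the lines at day 25: Nanog to 1.91%, against 10.4% at t=0, Dppa3 to 5.51%, against 15.4%, and Tdgf1 to 2.15%, against 8.36%, with Pou5f1 at 23.8%, against 29.9%. The wild-type ends of these 4 genes lay between 6.71 and 22.0% at day 25. Of 6 fibroblast genes, which feeder cells express, S100a4, Twist2 and Thy1 fell, and Col1a1, Col1a2 and Col3a1 did not pass, with median changes of -7.35 points for the pluripotency list and -1.42 points for the fibroblast list. Dazl, a germ cell gene for an RNA-binding protein, stood at 19.5% in the lines at day 25, against 32.7% at t=0 (adjusted p = 0.0340). In the wild type Dazl stood at 11.2% at day 25, against 42.7% at t=0, and the difference in change, 18.3 points, did not pass (adjusted p = 0.126). The part of these changes in those of the 10 genes was not tested.

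The surroundings of the 10 gene ends were lower at day 25 too. The fall was usually a smaller proportion of a higher starting level, but at most genes it was larger in points. From 2 to 10 kb on either side the flanks of the lines had a median level of 72.0, 65.5, 52.7 and 80.9% over the 4 stages, and those of the wild type 66.2, 67.0, 67.4 and 77.2%. In the lines the flank lay above the gene end at 9 of 10 genes at t=0. Day 25 kept 0.225 of the t=0 level at the gene end of Dmc1 and 0.715 in its flanks. The same pair of ratios was 0.395 and 0.760 for Hormad1, 0.459 and 0.748 for Sycp1, and 0.487 and 0.770 for Syce1. At Sycp2 they were alike, 0.614 and 0.603. At Smc1b the gene end kept more than its flanks, 0.973 and 0.778, and so did that of Stag3. A ratio depends on the starting level: the gene ends of the lines had a median of 29.4% at t=0 and 16.7% at day 25. The ratios therefore do not show that the flanks were spared. They are descriptions with no test, and changes of the flanks in log2 odds were not computed.

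**Figure D3:**
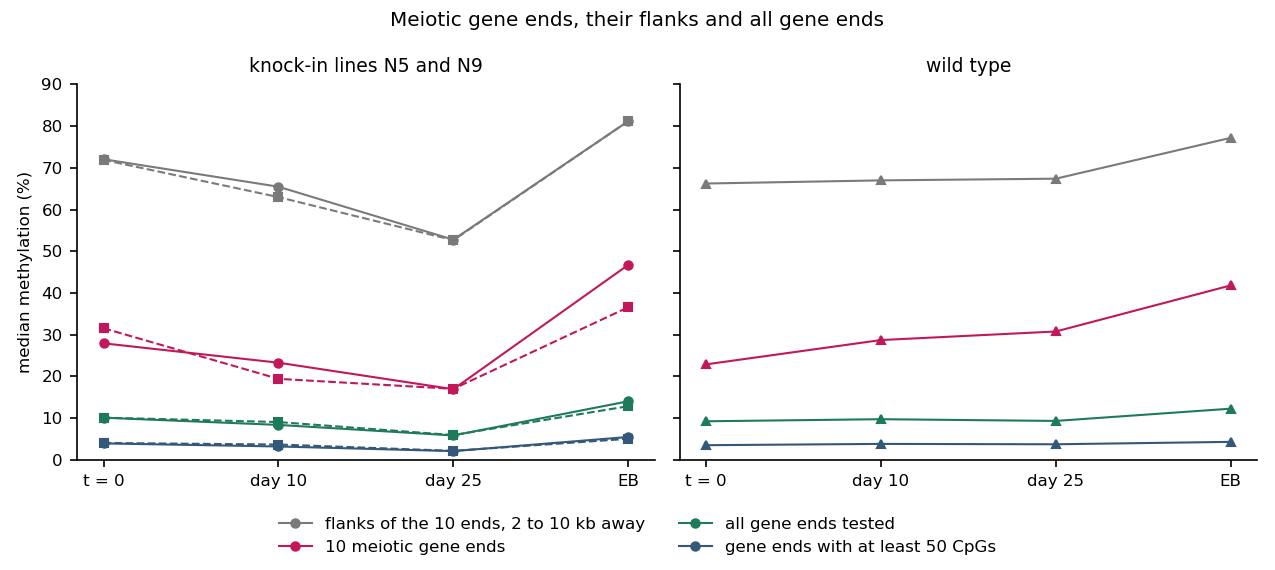
Median methylation in percent (vertical axis) by stage for the flanks of the 10 gene ends, the 10 gene ends, all 20316 gene ends tested and the 12182 with at least 50 CpGs; circles with solid lines are N5, squares with dashed lines N9 and triangles the wild type. The 10 gene ends have day 25 medians of 16.9% (N5) and 17.0% (N9), against 30.8% in the wild type, and lie between the flanks and the other gene ends in every library.

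In embryoid bodies the lines regained methylation at nearly all of these genes. Against day 25, 9 of 10 gene ends rose by edgeR's quasi-likelihood test, where 74.6% of all gene ends rose, with a median change of 27.0 points for the 10 and 7.22 points over all gene ends. By log2 odds the medians were 2.01 and 1.52. The exception was Stag3 (9.20 points, adjusted p = 0.0613), whose window at the promoter start did rise, by 12.0 points (adjusted p = 1.77e-04). The first window of Stag3 passed in the fit with a replicate block and a flow cell term (0.0443). Of the marker genes, 2 of 4 for pluripotency and 6 of 6 for fibroblasts rose too, with median changes of 9.17 and 16.5 points, and their part was not tested. Because the day 25 libraries enter both this comparison and the one with t=0, a low value at day 25 adds to both.

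Sycp3 rose most, to 70.6% ± 1.37 in embryoid bodies, against 31.2% ± 1.22 at day 25 (adjusted p = 1.74e-06). Sycp1 reached 50.1% ± 3.74, against 18.8% ± 0.627 (1.03e-05), and Syce1 47.3% ± 6.36, against 16.0% ± 2.91 (5.46e-06). Sycp2 and Stra8 rose by 28.8 and 31.4 points, and Hormad1 by 25.3, each with both lines above both of their day 25 values. Among the low gene ends, Smc1b rose to 25.7% ± 0.0823, against 9.77% ± 2.81 (2.46e-04), and Spo11 to 22.1% ± 2.27, against 8.14% ± 7.09 (0.00161). Dmc1 returned to 10.5% ± 2.77, against 2.50% ± 0.445 (8.28e-05), and was the least methylated of the 10 at this stage. In the wild type the same step changed Sycp1 by 12.3, Sycp2 by 16.4, Sycp3 by 13.5 and Hormad1 by 20.1 points, while Syce1 and Dmc1 changed by -2.92 and -6.00. Spo11 did not pass without N9 at day 25 (adjusted p = 0.0643), nor Smc1b without the 3 libraries of the other flow cell (0.0537).

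Set against t=0, the embryoid bodies of the lines ended higher at 2 genes. Sycp3 stood at 70.6% ± 1.37, against 47.9% ± 6.51 at t=0 (adjusted p = 0.0108), and Smc1b at 25.7% ± 0.0823, against 10.0% ± 2.33 (adjusted p = 0.00899); 8.92% of all gene ends were higher. At Smc1b this is 2.55 times the t=0 level, where its flanks reached 1.11 times. Dmc1 stood at 0.945 times its t=0 level. The other changes ran from 4.83 (Stag3) to 14.5 points (Syce1) apart from Dmc1 (-0.612), and none of them passed. Both calls were lost without N5 at t=0 (adjusted p = 0.123 for Sycp3 and 0.105 for Smc1b), without N5 embryoid bodies (0.0813 and 0.0648), in limma on logit values, and without all 3 libraries of the other flow cell. Of the marker genes, 3 of 6 for fibroblasts were higher (median change 16.9 points), and of 4 for pluripotency Dppa3 was higher and Tdgf1 lower, and their part was not tested. In N9 alone, which entered both calls, the changes were 17.2 points for Sycp3 and 13.9 for Smc1b.

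Lines and wild type were compared within each stage. In 3 of the 4 stages, all but day 25, 0 of the 10 gene ends passed by edgeR's quasi-likelihood test, 1 each at an unadjusted p under 0.05; of all gene ends 0.537% passed at t=0, 0.0148% at day 10 and 0.0689% as embryoid bodies, and limma passed 0 as well. At day 25, 3 were lower in the lines, where 10.2% of all gene ends were lower. Sycp1 stood at 18.8% ± 0.627 in the lines, against 43.6% in the wild type (adjusted p = 0.0108). Syce1 stood at 16.0% ± 2.91, against 41.1% (0.00486), and Dmc1 at 2.50% ± 0.445, against 11.1% (0.00655). These are the genes of the transverse filament, of the central element and of the recombinase. Hormad1 (-15.2 points, 0.0581) and Sycp3 (-16.4 points, 0.103) did not pass, and Hormad1 did when the wild-type columns were counted as separate libraries (0.0303). All 10 line means lay below the wild type, the nearest at Stag3 (-0.766 points). limma on logit values passed 0 of the 10 here. Over all gene ends the count in either direction, 2074, moved between 924 and 2330 with 1 library left out. Under the other alternatives it moved between 256 and 5235. Without the 3 libraries of the other flow cell 4 passed, Sycp1, Hormad1, Dmc1 and Spo11, and Syce1 did not (0.0560). Syce1 was also lost without N5 at day 25 alone (0.0535). With a replicate block and a flow cell term 2 passed, Dmc1 and Stra8 (0.0458), while Sycp1 (0.116) and Syce1 (0.0727) did not, where 3.91% of all gene ends were lower.

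The difference between lines and wild type in the change itself was tested with an interaction contrast. From t=0 to day 25 it passed at 2 genes, where 2.11% of all gene ends passed in this direction. At Syce1 the lines changed by -16.8 points and the wild type by 25.6 (difference -42.4, adjusted p = 0.0179), and at Dmc1 the lines by -8.60 and the wild type by 2.15 (difference -10.7, 0.0465). Sycp1 had a difference of -31.6 points (0.0548), which passed when the wild-type columns were counted as separate libraries (0.0287) and with a replicate block and a flow cell term (0.0334). The count over all gene ends, 429, moved between 7 and 698 with 1 library left out and between 0 and 4479 under the other alternatives. At t=0 the lines were 17.4 points above the wild type at Syce1, which is part of that difference. From day 25 to embryoid bodies the same 2 genes passed, where 6.07% of all gene ends did, with differences of 34.2 points at Syce1 (0.0142) and 14.0 at Dmc1 (0.00610). Of 4 pluripotency genes 3 passed in this contrast too, Dppa3, Nanog and Pou5f1, with a median difference of 19.7 points over the 4, against 13.2 over the 10 genes, and their part was not tested. Both contrasts use the same day 25 libraries. From t=0 to day 10 it passed at 0 of the 10 genes in edgeR, 1 of them at an unadjusted p under 0.05, where 0.0345% of all gene ends passed, and at 0 in limma. limma passed none of the 10 in the other contrasts either. Without the 3 libraries of the other flow cell, Syce1 passed in the first contrast and Dmc1 in the second. In the first contrast Dmc1 was lost without N5 or N9 at t=0 (0.0778 and 0.0800) and without N5 or N9 at day 25 (0.0698 and 0.0978). In the second Syce1 was lost without N5 at day 25 (0.0562).

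Day 10, 5 days after the pulse, showed little that passed. From t=0 to day 10 none of the 10 gene ends passed in the lines by edgeR or by limma, 1 of them at an unadjusted p under 0.05 in edgeR, where 0.197% of all gene ends passed. The median change was -4.46 points, against -1.02 over all gene ends. The gene with the lowest p was Syce1, at 19.8% ± 2.30 against 32.8% ± 5.41 at t=0 (adjusted p = 0.295), with -10.8 points in N5 and -15.2 in N9. Stra8 went opposite ways in the lines, -23.7 in N5 and 14.6 in N9.

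The promoter cores differed sharply between genes; that of Stag3 lies outside its window. Over the 300 bases of promoter, Smc1b, Stag3 and Dmc1 were nearly free of methylation in every library. Smc1b read 0.524, 0.610, 0.276 and 5.71% in N5 and 0.633, 1.95, 3.92 and 0% in N9 at the 4 stages, and 1.25, 0.602, 0.629 and 0.760% in the wild type. Stag3 read at most 6.70% and Dmc1 at most 4.35% in any library. Hormad1 stood at 16.9% ± 1.70 at t=0 and Syce1 at 18.9% ± 0.994. The cores of Sycp2 (32.6% ± 2.74), Sycp1 (33.8% ± 0.620) and Sycp3 (40.2% ± 2.30) were partly methylated, and that of Stra8 mostly so (67.5% ± 8.98). In embryoid bodies the core of Sycp1 reached 70.8% ± 0.610 in the lines, against 20.8% ± 1.12 at day 25, and that of Sycp3 62.9% ± 1.65, against 19.0% ± 9.58. The genes with the most CpGs in the 300 bases, Stag3 (30) and Smc1b (29), were among the unmethylated, and those with the fewest, Sycp2 and Stra8 (10 each), among the methylated. Between them the order did not hold: Dmc1 (18 CpGs) was nearly free of methylation, and Hormad1 (24) and Sycp1 (21) were more methylated.

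At Smc1b, Stag3 and Dmc1 the methylation that varied lay beside the core. Downstream of the Smc1b start the first 500 bases read 45.4% in embryoid bodies of the lines, against 11.5% at day 25 and 22.7% at t=0, while the 500 bases upstream stayed between 1.78 and 7.74%. At Stag3 the first 500 bases downstream read 44.1% in embryoid bodies, against 14.4% at day 25, and the next 500 bases 77.7%, against 31.9%. The 1 kb upstream of Stag3 stayed under 2% in the lines at every stage. At Dmc1 the trough was wider: the bins within 500 bases on either side of the start read 6.82 and 5.09% at t=0, and the bin from 500 to 1000 bases downstream 9.88% at day 25, against 27.7% at t=0. In windows of 2 kb either side, which take in more of these sides, all 10 genes passed as lower at day 25, where 66.8% of all gene ends did. In windows of 500 bases either side Sycp3 (adjusted p = 0.0901) and Stra8 (0.0937) no longer passed by edgeR's quasi-likelihood test. Sycp1 and Sycp3 had no such empty core: in the 500 bases upstream of the start Sycp1 read 26.7% at day 25, against 44.3% at t=0, and Sycp3 38.9%, against 62.6%.

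**Figure D4:**
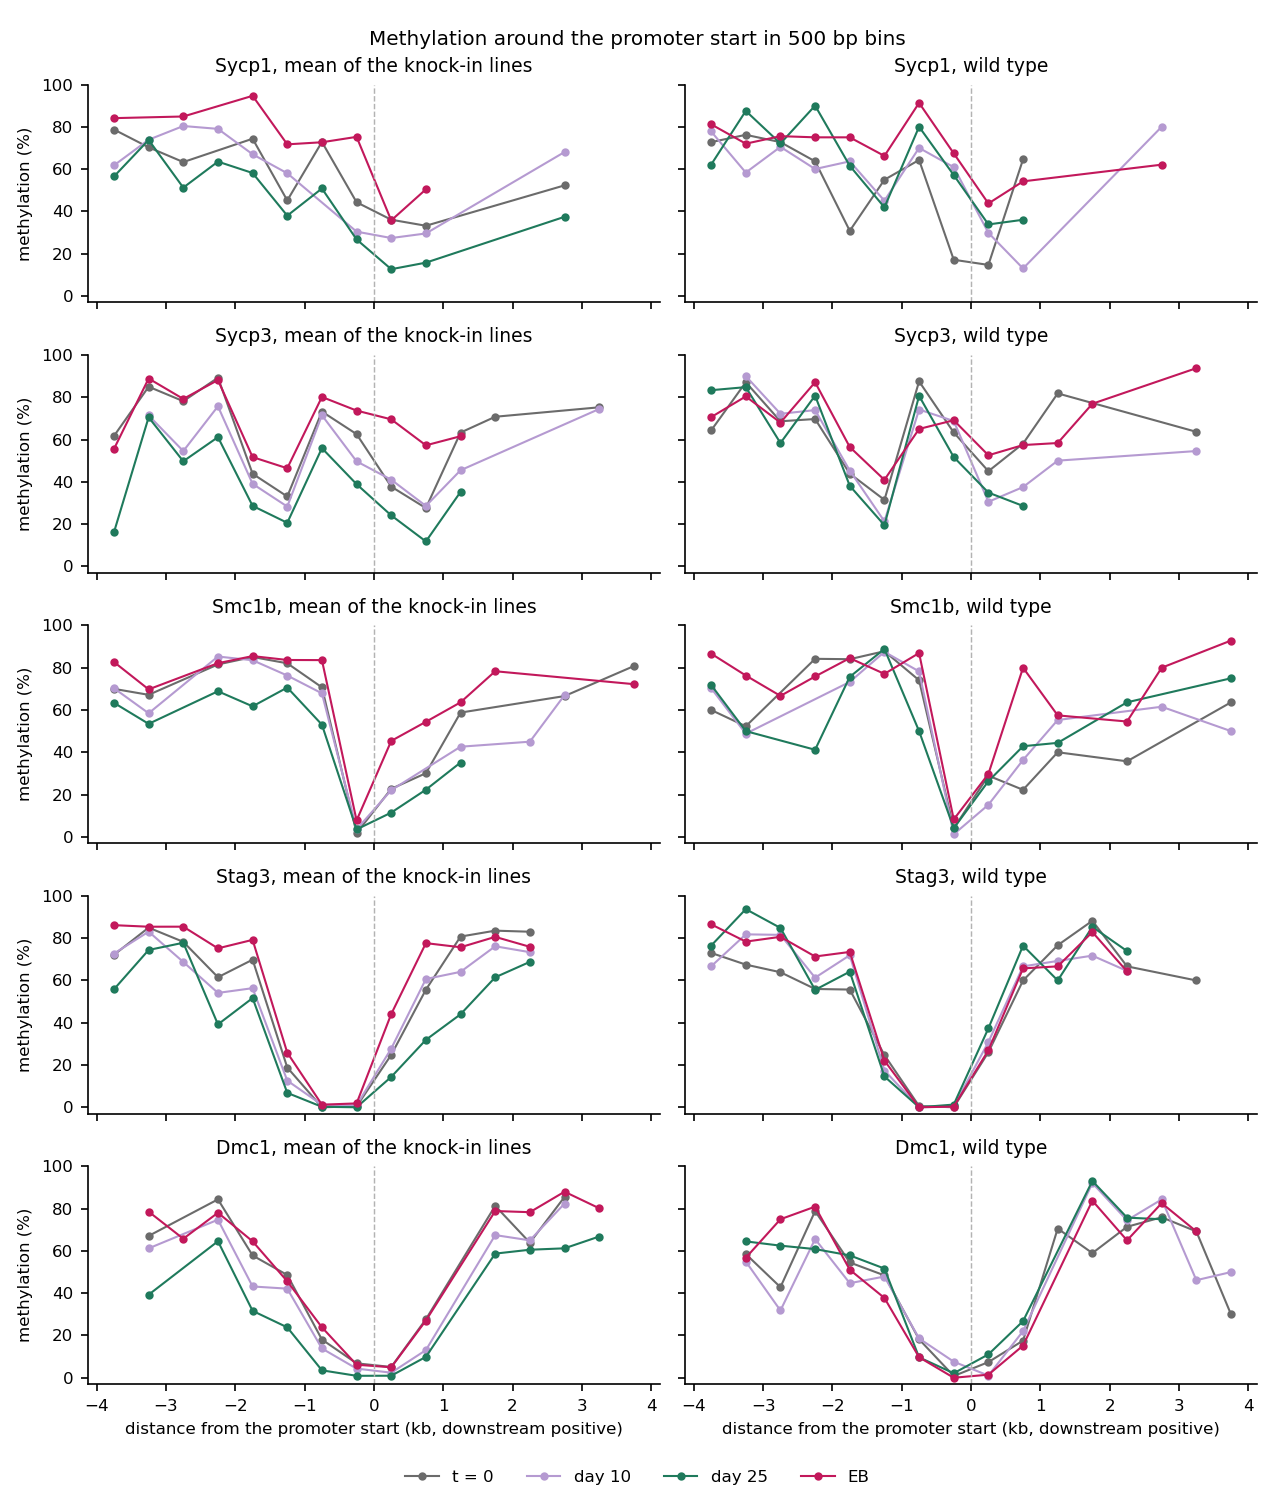
Methylation in percent (vertical axis) in 500 bp bins by distance from the promoter start in kb (horizontal axis), for Sycp1, Sycp3, Smc1b, Stag3 and Dmc1, as the mean of the knock-in lines on the left and the wild type on the right; bins with fewer than 10 calls in a library are left out. Smc1b, Stag3 and Dmc1 have a trough at the start in every stage and Sycp1 and Sycp3 do not, and the day 25 curve of the lines runs below that of embryoid bodies downstream of the start.

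The CpG inside each motif match could be read, although calls were few. At Stag3 the E-box CpG had 0 methylated of 15, 12, 25 and 19 calls over the 4 stages of the lines. The E2F CpG of Sycp3 was methylated in 8 of 13 calls at t=0, 8 of 17 at day 10, 5 of 13 at day 25 and 12 of 13 in embryoid bodies of the lines. Its E-box CpGs at -64 and -43 had 7 of 16 and 5 of 13 methylated calls in embryoid bodies, against 0 of 14 and 0 of 5 at day 25. The E-box CpGs of Hormad1 had at most 1 methylated call at any stage in the lines. With so few calls these are counts and no test was made.

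Away from these windows most of the genes were more methylated. The other gene end, with fewer CpGs, read 85.1% ± 9.03 at Dmc1, 82.7% ± 4.81 at Smc1b and 80.1% ± 7.28 at Sycp1 in the lines at t=0. At day 25 the same ends read 62.2% ± 7.77, 57.2% ± 0.361 and 63.6% ± 8.81. In the gene bodies, without 2 kb at each end, the lines stood between 55.7% ± 0.544 (Stag3) and 81.9% ± 0.530 (Syce1) at t=0, and between 42.2% ± 0.852 (Stag3) and 60.8% ± 3.74 (Syce1) at day 25. In the fit at the other gene end, 8 of the 9 genes with enough calls passed as lower at day 25, all but Sycp1 (adjusted p = 0.0505), where 77.4% of all such ends did.

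A list of 36 other meiotic genes was read in the same way. At day 25, 21 of 36 fell in the lines, against 40.2% of all gene ends, with a median change of -8.18 points. The lowest p values were those of Rec8, the kleisin of meiotic cohesin, which stood at 6.46% at day 25 against 23.7% at t=0 (adjusted p = 4.36e-04), Msh4, of the crossover pathway (4.82% against 18.1%), Hsf2bp, which acts with BRCA2 in meiotic recombination (6.01% against 24.7%), and Tex12, of the central element (21.2% against 43.6%). In embryoid bodies 29 of 36 (80.6%) rose against day 25, where 74.6% of all gene ends did, led by Hormad2, the partner of Hormad1, at 64.4% against 14.4%, and Syce3, of the central element, at 81.7% against 38.8%. Against t=0, 4 of the 36 (11.1%) were higher in embryoid bodies, Hormad2, Rec114, Syce3 and Tex12, where 8.92% of all gene ends were. At day 25 against the wild type 7 of 36 (19.4%) were lower, among them Hsf2bp, Tex11, Tex12 and Rec8, where 10.2% of all gene ends were. The interaction from t=0 to day 25 passed at Rec8 alone of the 36, with a difference of -20.8 points (0.0450), where 2.11% of all gene ends passed.

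Genes of the piRNA pathway, which silences transposons in germ cells, had higher starting levels and larger changes in points. Of 16, 12 fell at day 25, where 40.2% of all gene ends did, with a median change of -20.1 points against -3.90. In embryoid bodies 15 rose, where 74.6% of all gene ends did, with a median of 32.7 points against 7.22. Tex19.1, which restrains transposons in germ and pluripotent cells, stood at 24.9% at day 25, against 59.4% at t=0. Their median level in the lines at t=0 was 55.6%, against 29.4% for the 10 genes described here and 18.4% for the other meiotic genes. These lists were compared by their counts and medians alone.

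For each gene the gene end closest to it in level over the 12 libraries was sought among 19263 ends, by root mean square difference. The closest to Smc1b was Ribc2 (0.741 points), whose window shares 1898 of its 2001 bases with that of Smc1b, so the pair is largely the same CpGs. Dmc1 was closest to Cyp2s1 (1.60 points), Stag3 to Tlcd2 (3.19) and Spo11 to Zfp94 (3.40). Sycp2 was closest to Clip2 (3.59), Sycp1 to Lrrc72 (3.95) and Sycp3 to 1700014D04Rik (4.11). Syce1 (Hopx, 5.27), Hormad1 (Grap2, 5.57) and Stra8 (Furin, 5.91) had the most distant closest ends. None of the closest ends belonged to the 10 genes.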

How the data were processed

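The deposited table holds, per the file headers, the methylated calls and the coverage of 21875444 CpGs as counts for each library; each knock-in library has 1 set of columns for its lanes, and 32 value columns were used and 0 were not. BWA, Picard 1.91 and mm10 are named, per the submitters' processing notes, with no role given; for the caller of methylation the sources used here give no name. Each wild-type library has a pair of columns (the other deposited coverage columns, also counts), which were summed, because the labels do not say whether they are lanes or separate cultures; chi-square per degree of freedom between them was 2.40 to 2.46, against 2.38 to 3.18 between N5 and N9.

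Methylated and unmethylated counts were summed over the CpGs within 1 kb of the gene end with more CpGs (at least 5 CpGs, and at least 10 calls in every library), which left 20316 of 21627 gene ends. edgeR 4.0.16 in R 4.3.3 fitted both counts per library with quasi-likelihood, terms for each library and a coefficient for each genotype and stage, with Benjamini-Hochberg adjustment over all tested ends and a threshold of 5%. Fold changes in odds are given as log2 values where stated, and points are differences in percent. limma 3.58.1 on logit values, other windows, coverage minimums and left-out libraries were the alternatives. On simulated data 95.5% of 200 ends changed 4-fold in odds were recovered, with 8 false among 199 calls over 20316 ends. The changed ends had middle levels and many calls in every library, and changed in the lines at day 25 alone. Gene ends with low levels, such as Dmc1, Spo11 and Smc1b, smaller changes and a stage where 40.2% of ends fell were not simulated. N5 and N9 were each sampled at every stage, which pairs their libraries, and the main fit did not use this pairing. Deviations of N5 from N9 correlated between stages at -0.00690 to 0.0439 over 16697 ends. Nothing says that the lines' libraries came from several cultures. The spread behind the p-values is that of N5 against N9, with 4 residual degrees of freedom, and the test moderates it over all gene ends. At t=0, day 25 and in embryoid bodies these 2 lines also differ in flow cell. Library depth was 102896335 to 191210205 calls. Wilson intervals and floors cover counting error only, and the intervals treat every call as independent.

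The members and the lists were chosen with earlier results of these data known. Genes named outside the 10 were the 4 of each list with the lowest p in a comparison, the marker genes with Dazl, and for each of the 10 the end closest in level. Python 3.11.15, pandas 2.3.3 and scipy 1.17.1 were used.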

Additional observations from a re-analysis of the deposited data

Results flagged for a closer look

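At Syce1 and Dmc1 the lines and the wild type changed differently by the interaction test, each with 1 wild-type library a stage. At Syce1 the difference was -42.4 points from t=0 to day 25 and 34.2 points from day 25 to embryoid bodies. At Dmc1 it was -10.7 points from t=0 to day 25 and 14.0 points from day 25 to embryoid bodies. Both steps share the day 25 libraries, so a single low or high day 25 value enters both differences with opposite sign.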

How the results depend on the processing

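Of 2288 values per gene, comparison and alternative, 2199 kept their side of the threshold, 34 newly passed and 55 no longer passed. The sign changed in 82, of which 0 passed in either fit: Smc1b at day 25 against t=0, for example, was -0.273 points, and 1.37 without N9 at t=0, and Stra8 at day 10 against t=0 was -4.60, and 2.77 without N5 at t=0. The count of 7 genes lower at day 25 against t=0 was 4 by limma on logit values, 3 without the 3 libraries of the other flow cell, and 5 to 7 with 1 library left out. The count of 9 genes higher in embryoid bodies than at day 25 was 8 to 10 under every alternative run. The count of 2 genes higher in embryoid bodies than at t=0 was 1 with windows of 2 kb, 0 at the other gene end, 0 by limma, 0 without the other flow cell and 0 to 2 with 1 library left out. The count of 3 genes lower than in the wild type at day 25 was 1 at the other gene end, 0 by limma and 3 to 4 with 1 library left out. The interaction from t=0 to day 25 passed at 2 genes, at 0 at the other gene end, 0 by limma, 1 with the window at the promoter start, 1 without the other flow cell and 1 to 3 with 1 library left out. The interaction from day 25 to embryoid bodies passed at 2 genes, at 1 at the other gene end, 0 by limma, 1 without the other flow cell and 1 to 2 with 1 library left out. With windows of 500 bases either side the count lower at day 25 against t=0 was 5. The cause of these differences was not tested. With line as a replicate block the counts were 7, 9, 2, 3, 2 and 2 in the order above, and the block changed no other call. With a flow cell term added to the replicate block they were 7, 10, 2, 2, 3 and 2, as Stag3 passed in embryoid bodies against day 25, Stra8 passed and Sycp1 and Syce1 were lost against the wild type at day 25, and Sycp1 passed the first interaction. The window at the promoter start, the wild-type columns as separate libraries and the fit without the other flow cell were chosen after seeing the data. The last of these leaves N9 alone in each knock-in group but day 10. The counts over all ends, in either direction, moved too. At day 25 against t=0 the count was 8172, between 2001 and 15115 under the alternatives. For embryoid bodies it was 15162 (9192 to 18344) against day 25 and 1820 (0 to 2965) against t=0. Against the wild type at day 25 it was 2074 (256 to 5235). The interactions gave 429 (0 to 4479) from t=0 to day 25 and 1238 (52 to 3008) from day 25 to embryoid bodies. Levels taken from CpGs called in every library moved in 22 of 80 cases, and unweighted means in 21 of 80. A knock-in level counted as moved when it shifted by at least the SD of the lines. A wild-type level did when it left its Wilson interval. The shifts ran from -8.96 to 7.96 points for CpGs called in every library and from -18.9 to 33.7 points for unweighted means.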
